A study of Mus musculus with 18 samples.

Results

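Cortical interneurons of mice were compared at 3 ages to find the genes whose level was highest or lowest at the middle age, E18.5, the time at which these cells invade the cortical plate. For each gene the mean of the E18.5 control arrays was set against the average of the E14.5 and P2 control means, with weights 1, -0.5 and -0.5, and this difference is called the E18.5 contrast. A peak or a dip was a gene whose contrast passed limma's test at a Benjamini-Hochberg adjusted p under 0.05 and whose E18.5 mean lay beyond both other stage means. The 9 control arrays of the 18 in the study entered the contrast. Of 18193 genes, 172 were peaks and 162 were dips.

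The cells came from the caudal ganglionic eminence (CGE), an embryonic source of cortical interneurons, and were sorted as GFP-positive cells from brains of GAD65-GFP mice, a line in which a GAD65 transgene marks a part of the GABAergic cells. Control mice carried GAD65-GFP alone, and the other animals carried Htr3a-KO and GAD65-GFP. Both genotypes were sampled at E14.5 (embryonic, cells on their tangential path), at E18.5 and at P2 (postnatal, cells settling in the neocortex), with 3 arrays per group from 3 litters and at least 4 brains pooled per array. Levels are log2 intensities on the Affymetrix Mouse Genome 430 2.0 array, on which 1 unit is a 2-fold difference.

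CGE interneurons travel a long tangential route, enter the cortical plate radially and then build receptors, channels and synapses in their layer. Htr3a encodes the channel-forming subunit of the serotonin-gated 5-HT3 receptor and is a defining gene of this lineage. Semaphorins are guidance proteins read by plexins and neuropilins on migrating neurons, and immediate early genes are switched on rapidly by activity and by cell stress.

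Array medians ran from 6.35 to 6.45, and arrays of the same group correlated at 0.984 to 0.996. The E18.5 control arrays 2 and 3 correlated at 0.985, and array 1 correlated with them at 0.988 and 0.992. In sums of linear levels, E18.5 control array 1 read 6263 over oligodendrocyte lineage markers, against 12402 and 12721 on arrays 2 and 3, and 16206 over neural progenitor markers, against 23844 and 27345. It read 3503 over microglia and macrophage markers, against 1488 and 1649. Control array 2 of E18.5 stood apart for Y-linked genes, with an Eif2s3y level of 4.07 against 8.25 or more on the 8 other control arrays. Summed over the linear levels of 14 striatal projection neuron markers, E14.5 control arrays 1 and 2 read 24664 and 33726, array 3 read 8549, and the 6 later control arrays read 6330 to 8484. P2 control array 1 read 21786 over 19 microglia and macrophage markers, against 1390 to 7412 on the other control arrays. The results were also computed with each of these arrays left out.

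The promoters of 3 genes are shown because each gene passed against both other stages and because the 250 bases before its start hold a full cAMP response element, TGACGTCA, the site of the activity-regulated factor CREB. Plk2 (a polo-like kinase induced by activity in neurons) and Zscan18 (a zinc finger protein) were peaks, and Otud7a (a deubiquitinase) was a dip; 4 further peaks hold the element and passed 1 step only. The sequences are RefSeq's for build GRCm38.p6, given 5′ to 3′ on the gene's strand, with the element in capitals. They lie at chr13:110394794-110395043 (plus strand) for Plk2, chr7:12803639-12803888 (minus strand) for Zscan18 and chr7:63444522-63444771 (plus strand) for Otud7a.
Plk2: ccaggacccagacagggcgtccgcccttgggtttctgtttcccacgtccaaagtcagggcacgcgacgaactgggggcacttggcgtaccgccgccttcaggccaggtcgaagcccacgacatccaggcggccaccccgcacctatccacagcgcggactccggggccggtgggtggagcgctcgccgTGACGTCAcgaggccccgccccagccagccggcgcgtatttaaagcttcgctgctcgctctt
Zscan18: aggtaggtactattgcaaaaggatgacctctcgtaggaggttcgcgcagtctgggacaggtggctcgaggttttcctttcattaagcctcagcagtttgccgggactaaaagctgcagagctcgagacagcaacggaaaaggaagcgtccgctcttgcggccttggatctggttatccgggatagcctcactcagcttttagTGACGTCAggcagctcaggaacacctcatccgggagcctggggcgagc
Otud7a: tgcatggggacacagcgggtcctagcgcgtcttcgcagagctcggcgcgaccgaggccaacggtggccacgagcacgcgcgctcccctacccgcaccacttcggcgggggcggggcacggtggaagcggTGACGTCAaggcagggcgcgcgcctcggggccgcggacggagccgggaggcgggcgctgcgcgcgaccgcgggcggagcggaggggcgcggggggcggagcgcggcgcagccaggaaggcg
The element was found in 6 of 141 peak genes with a listed promoter (4.26%), in 1 of 132 dip genes (0.758%) and in 361 of 14452 genes on the array (2.5%). Its half-site TGACG, counted on both strands and contained in the full element, was found in 28.4% of peak genes, 19.7% of dip genes and 25.9% of the genes on the array. Plk2 read 9.70, 10.34 and 9.32 on the E14.5 arrays, then 10.79, 10.55 and 10.53 on the E18.5 arrays, then 10.23, 9.60 and 9.92 on the P2 arrays. All 3 E18.5 arrays lay above the 6 others, with a contrast of 0.77 ± 0.19 (SE; limma, adjusted p = 0.0492). Zscan18 peaked with a contrast of 0.83 ± 0.16 (SE; limma, adjusted p = 0.0186), and Otud7a dipped with a contrast of -0.35 ± 0.08 (SE; limma, adjusted p = 0.0275). With 1 control array left out in turn, Plk2 kept its call in 2 of 9 fits, Zscan18 in 7 and Otud7a in 5. A match is a description of the letters and no evidence of binding.

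Transient calls were few. Peaks were 0.945% of the genes and dips 0.89%, and the contrast passed for 2.1% of the 34945 probe sets tested. Another 99 genes passed the contrast while their E18.5 mean lay between the other stages. The median contrast was 0.65 for peaks (1.57-fold) and -0.80 for dips (1.74-fold), against 0.01 over all genes. A contrast over 2-fold was reached by 32 peaks and 58 dips.

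Most calls passed against 1 of the other stages only. The E18.5 arrays differed from E14.5 and from P2 at an adjusted p under 0.05 in each comparison for 47 peaks (0.258% of genes) and 33 dips (0.181%). These comparisons share the E18.5 arrays. Of the other peaks, 72 passed only against E14.5 and 53 only against P2, and of the other dips 46 passed only against E14.5 and 83 only against P2. The smaller step was under 0.25 of the larger for 38 peaks and 63 dips, and at least 0.5 of it for 85 peaks and 50 dips. With the larger of the 2 p-values taken per probe set, limma called 0 of either kind (smallest adjusted p = 0.175). Of all 18193 genes, called or not, 292 above both other stages and 182 below both had this larger p under 0.05 unadjusted. Array weights gave 2 dip calls by this test, and single arrays left out gave at most 1 peak and 1 dip. All 3 E18.5 arrays lay beyond the 6 other control arrays for 101 peaks and 78 dips; over all genes the shares were 1.96% above and 1.47% below, and nothing is read from the counts because these arrays chose the members.

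**Figure D1:**
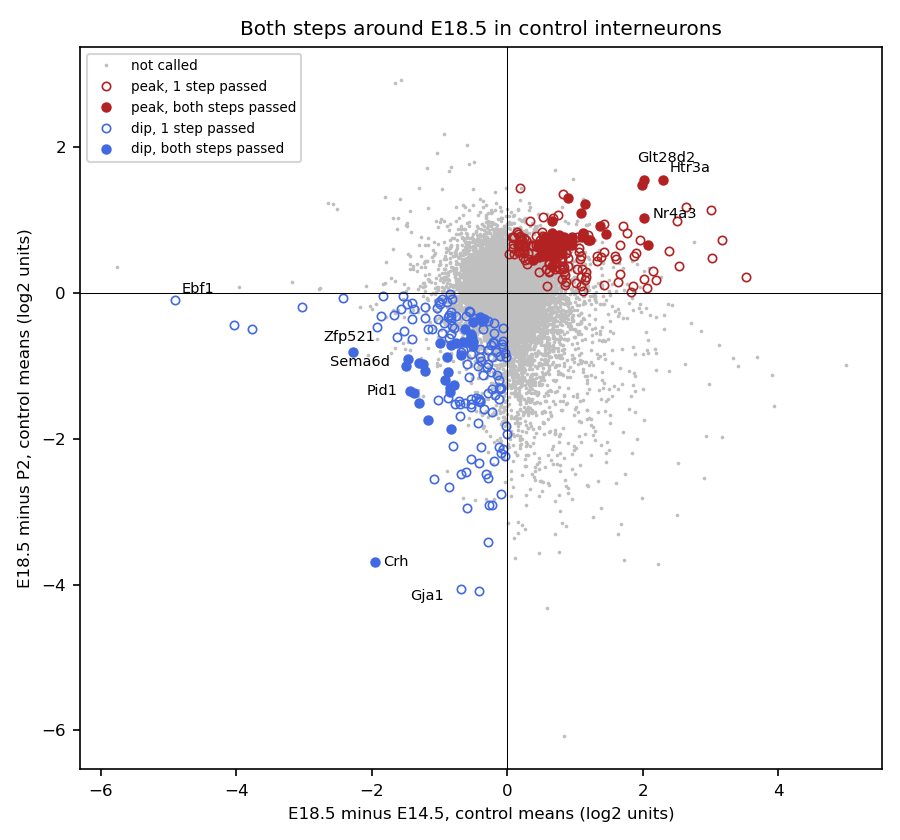
Each point is 1 gene. The horizontal axis is the E18.5 control mean minus the E14.5 mean and the vertical axis the E18.5 mean minus the P2 mean, both in log2 units. Filled symbols are the 47 peaks and 33 dips that passed both steps, and open symbols the calls that passed 1 step, many of which lie close to an axis.

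The counts changed with single arrays left out. Such a fit also has fewer arrays behind its contrast and spread, and this loss of precision was not separated from the part of the array itself. Without E18.5 control array 1, 14 peaks and 23 dips were called, and without P2 control array 2, 75 and 66. Without P2 control array 1 the counts were 305 and 213. Without E14.5 control arrays 1 and 2 in turn, peaks fell to 95 and 105 and dips to 133 and 108. Without E18.5 control array 2 they were 109 and 87, and without E18.5 control array 3 they were 120 and 97. A set of 10 peaks and 18 dips kept their call without each of the 9 control arrays in turn, 0.055% and 0.0989% of all genes, and no called gene turned direction. These 28 genes are described first; they were singled out after their values were seen. Each other peak or dip named here lost its call without E18.5 control array 1.

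**Figure D2:**
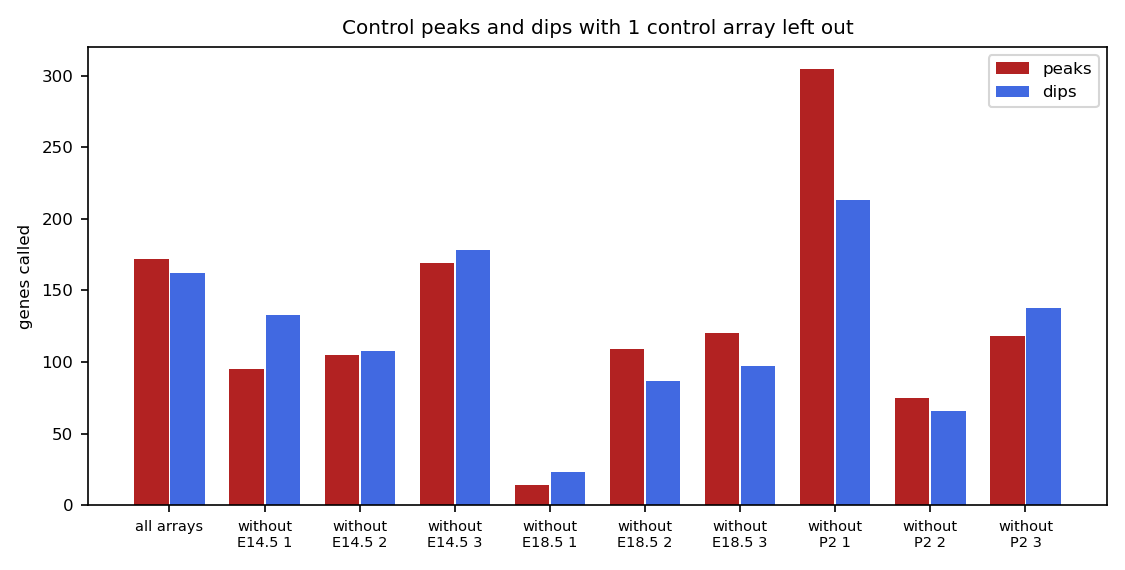
Bars give the number of genes called as peaks (red) and dips (blue) with all arrays and with 1 control array left out, named by stage and array number. The lowest pair, 14 and 23, is without E18.5 array 1, and the highest, 305 and 213, without P2 array 1.

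Htr3a had the largest contrast among the peaks that kept their call. It read 8.49, 7.99 and 7.65 on the E14.5 arrays, then 9.64, 10.79 and 10.58 on the E18.5 arrays, then 8.61, 8.64 and 9.11 on the P2 arrays. Every E18.5 array was above every other control array. The contrast was 1.92 ± 0.22 (SE), or 3.79-fold (limma, adjusted p = 0.00119), made of a difference of 2.29 from E14.5 and 1.55 from P2. In Htr3a-KO cells it read 7.19 to 7.41 at E14.5, 6.61 to 7.09 at E18.5 and 6.71 to 7.01 at P2, below each control array of the same stage.

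Glt28d2 and Ccno had the next largest contrasts among these peaks. Glt28d2 read 6.25, 6.02 and 6.90 on the E14.5 arrays, then 8.42, 8.73 and 8.06 on the E18.5 arrays, then 7.03, 6.75 and 6.81 on the P2 arrays. Its E18.5 arrays stood over all others, with a contrast of 1.78 ± 0.24 (SE; limma, adjusted p = 0.00298). Ccno, cyclin O, known for the making of multiple cilia, read 6.20, 6.31 and 6.16, then 8.98, 7.57 and 8.09, then 6.71, 6.75 and 6.75. Its E18.5 arrays were also the 3 highest, with a contrast of 1.73 ± 0.27 (SE; limma, adjusted p = 0.00586).

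The other peaks that kept their call had smaller contrasts. Grem1, a secreted antagonist of bone morphogenetic proteins, read 6.27, 6.20 and 6.13 on the E14.5 arrays, then 7.15, 6.81 and 6.61 on the E18.5 arrays, then 5.77, 6.04 and 5.79 on the P2 arrays. Msra, which repairs oxidised methionine, read 8.44, 8.58 and 8.65, then 9.47, 9.18 and 9.43, then 8.77, 8.92 and 8.76. For both genes the E18.5 arrays were the 3 highest, with contrasts of 0.82 ± 0.12 and 0.67 ± 0.09 (SE). Fbxo33, a substrate adaptor of a ubiquitin ligase, had a contrast of 0.86, and Fam160a1 one of 0.67, both passing each step. Fam174b passed each step but with overlap, since P2 array 1 (9.59) lay over E18.5 array 3 (9.51). Kctd4 and D430041D05Rik passed only against E14.5, by 1.64 and 1.90, and lay 0.15 and 0.55 over P2.

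Crh, the stress neuropeptide corticotropin-releasing hormone that some cortical interneurons express, had the dip with the largest contrast. Its probe set read 6.21, 6.03 and 7.39 on the E14.5 arrays, then 4.64, 4.52 and 4.63 on the E18.5 arrays, then 8.18, 8.14 and 8.53 on the P2 arrays. The E18.5 arrays were the 3 lowest and all lay below 5.255, the level under which 30% of probe sets fell. The contrast was -2.82 ± 0.29 (SE; limma, adjusted p = 3.72e-04), a 7.05-fold difference in intensity whose size is limited by the array's floor, as is its rank among the dips.

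Zfp521, a zinc finger transcription factor, had the smallest p of all peaks and dips. It read 10.05, 10.35 and 10.28 on the E14.5 arrays, then 7.84, 7.96 and 8.08 on the E18.5 arrays, then 8.59, 8.86 and 8.85 on the P2 arrays. The stages did not overlap, and the contrast was -1.54 ± 0.11 (SE; limma, adjusted p = 1.68e-05). Its second probe set was called as a dip too, at -0.91.

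Pid1 and Tmem176b dipped with steps of like size on either side, -1.43 and -1.35 for Pid1 and -1.38 and -1.38 for Tmem176b. Pid1, a phosphotyrosine-binding protein known from insulin signalling, read 9.60, 9.89 and 8.85 on the E14.5 arrays, then 7.75, 8.29 and 8.02 on the E18.5 arrays, then 9.20, 9.44 and 9.47 on the P2 arrays. Tmem176b, a membrane protein, read 10.68, 10.76 and 10.59, then 9.13, 9.35 and 9.41, then 10.40, 11.08 and 10.55. Both groups of E18.5 arrays lay below all others, with contrasts of -1.39 ± 0.18 and -1.38 ± 0.19 (SE). Pid1's 2 other probe sets, with means of 5.06 and 4.46, did not pass (contrasts 0.05 and -0.06). Hsdl2, a peroxisomal dehydrogenase-like protein, Tank, an adaptor in NF-kB signalling, Flywch2 and Ghr, the growth hormone receptor, also passed each step, with contrasts of -1.10, -0.76, -0.72 and -1.35.

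Of the other dips in this set, Sema6d is described with its family, and the rest passed 1 step only. Pla2g7, which degrades platelet-activating factor, read 6.81, 7.14 and 7.58 on the E14.5 arrays, then 6.16, 6.81 and 7.30 on the E18.5 arrays, then 10.31, 11.28 and 10.96 on the P2 arrays. Its E14.5 and E18.5 arrays overlapped, and the difference of -0.42 between these stages did not pass (limma, adjusted p = 0.483). Mgst1, a microsomal glutathione transferase, Car2, a carbonic anhydrase, Dapp1, Tpbg and Gm5089 likewise passed only against P2. Cemip, which takes part in hyaluronan breakdown, Patj, a scaffold of cell polarity, and Cabp7, a calcium-binding protein, passed only against E14.5, by -1.67, -1.21 and -1.38.

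**Figure D3:**
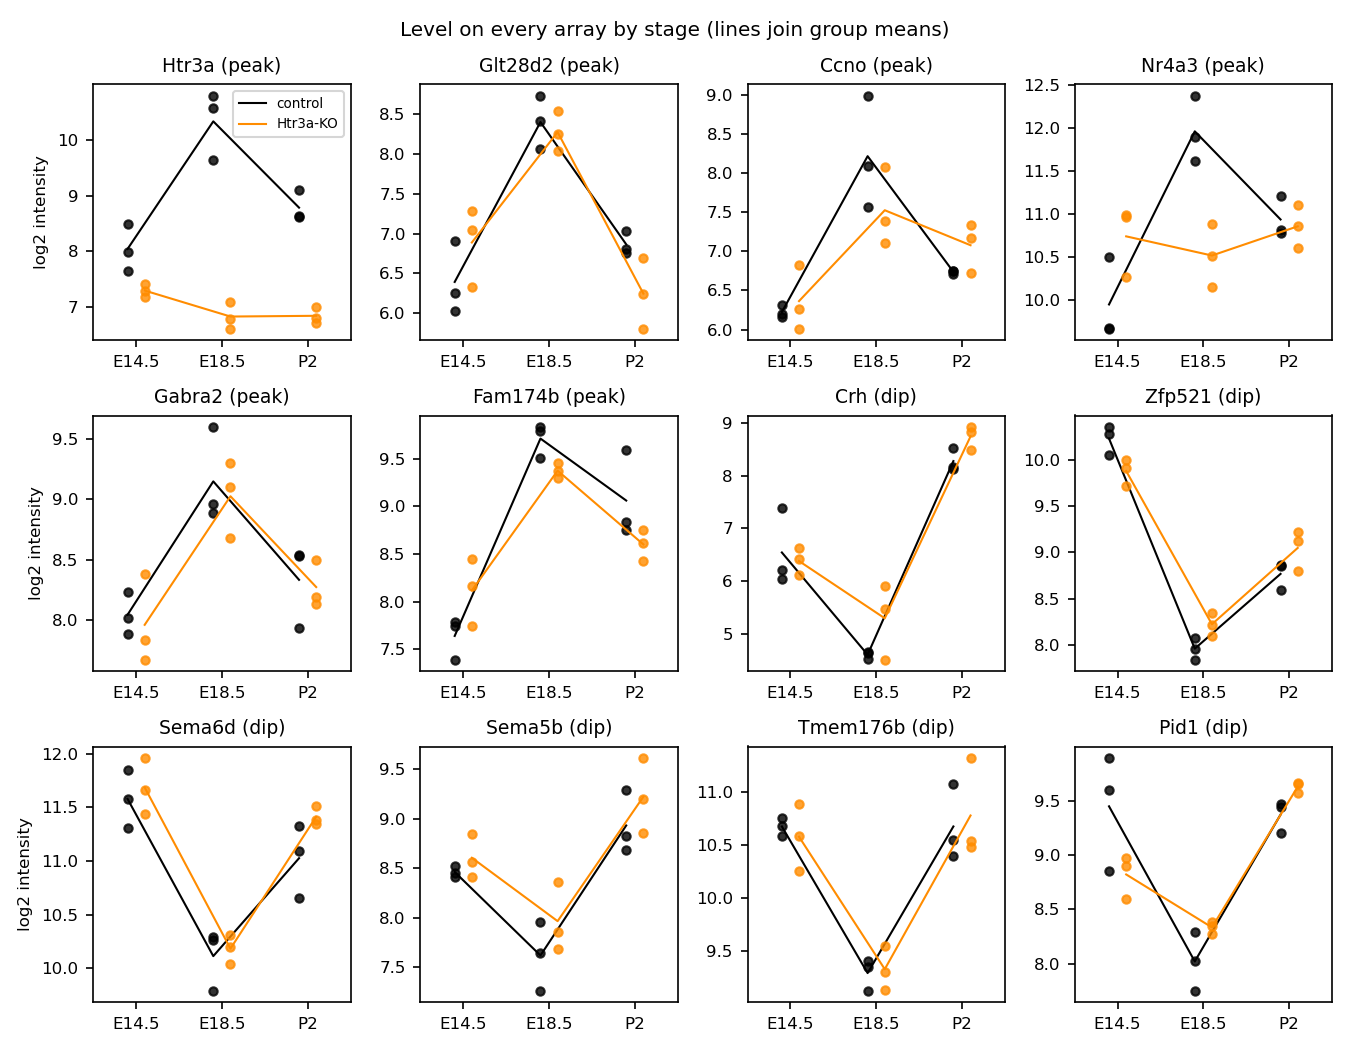
Each panel shows 1 gene. Points are the log2 intensities of single arrays at E14.5, E18.5 and P2, black for control and orange for Htr3a-KO, and lines join the 3-array means. Htr3a and Nr4a3 rise at E18.5 in black only, with contrasts of 1.92 and 1.52 in controls and -0.24 and -0.28 in Htr3a-KO, while Glt28d2, Gabra2 and the 6 dips have contrasts of the same sign in both.

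Guidance genes of the semaphorin family held both dips and a peak. Of 31 semaphorins, plexins and neuropilins measured, 5 dipped (Sema6d, Sema5a, Sema5b, Plxnc1 and Nrp2) and 1 peaked (Sema4f), and 25 were not called, against 0.89% dips and 0.945% peaks over all genes; 5 against 1 was not tested. In Htr3a-KO, 3 of the 31 were dips and 3 were peaks, with a median contrast of 0.14. The median contrast of the 31 was -0.07, against 0.01 over all genes. Of the dips, 4 passed both steps, and Sema6d alone kept its call without each control array. Sema5b kept it in 8 of the 9 fits, Nrp2 in 7, Plxnc1 and Sema4f in 6 and Sema5a in 4.

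Among the ligands, Sema6d, a transmembrane semaphorin, read 11.58, 11.31 and 11.85 on the E14.5 arrays, then 10.26, 10.29 and 9.79 on the E18.5 arrays, then 10.66, 11.09 and 11.33 on the P2 arrays. The E18.5 arrays were the 3 lowest, with a contrast of -1.19 ± 0.16 (SE; limma, adjusted p = 0.00298). Its 3 dimmer probe sets gave -0.55, -0.20 and -0.03 and did not pass. Sema5b read 8.41, 8.45 and 8.52, then 7.26, 7.95 and 7.64, then 8.82, 9.29 and 8.68, and Sema5a had means of 8.95, 7.64 and 8.59. Neither overlapped between E18.5 and the other stages, and their contrasts were -1.08 ± 0.20 and -1.13 ± 0.25 (SE). Sema4f read 9.94 to 10.18 at E18.5 and overlapped with P2, where array 1 read 10.01.

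Among the receptors, Plxnc1 read 8.89, 9.15 and 9.23 at E18.5, against 9.30 or more at E14.5 and 9.63 or more at P2. Its E18.5 arrays were the lowest, with a contrast of -0.66 ± 0.14 (SE; limma, adjusted p = 0.0218). Nrp2, a neuropilin, was a step: its means were 9.61, 7.18 and 7.25, and E18.5 and P2 overlapped. Plxna4 and Sema3a, the receptor and ligand of the study's title, were highest at E18.5 without a call. Plxna4 had means of 9.86, 10.35 and 9.81 (contrast 0.51 ± 0.22 SE; limma, adjusted p = 0.265), and Sema3a means of 8.93, 9.10 and 8.09 (contrast 0.59 ± 0.22 SE; limma, adjusted p = 0.189). Nrp1 had means of 11.06, 11.38 and 10.15 and did not pass either (limma, adjusted p = 0.146). Ephs and ephrins (20 measured), slits, netrins and their receptors (21) and migration cytoskeleton genes (39) held 0 calls by limma's contrast, with 3, 4 and 9 members at an unadjusted p under 0.05.

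Immediate early genes gave 3 peaks and 0 dips of 34 measured, with 15 at an unadjusted p under 0.05 and a median contrast of 0.30; peaks were 0.945% of all genes. In Htr3a-KO the list held 0 peaks and 0 dips by limma's contrast, with a median of -0.01. Nr4a3, an activity-induced nuclear receptor, read 9.67, 9.66 and 10.50 on the E14.5 arrays, then 12.37, 11.62 and 11.89 on the E18.5 arrays, then 11.21, 10.81 and 10.78 on the P2 arrays. All E18.5 arrays were highest, and it passed both steps (contrast 1.52 ± 0.24 SE; limma, adjusted p = 0.00587). Its 2 other probe sets, with means of 6.75 and 4.13, had contrasts of -0.03 and 0.10. Fosb, a subunit of the AP-1 factor, read 6.35 to 7.17 at E14.5, then 9.80, 10.43 and 9.34, then 9.94, 8.68 and 8.77, so E18.5 and P2 overlapped. Dusp6, a phosphatase of ERK, had means of 8.28, 10.14 and 9.63. Nr4a3 and Fosb kept their call in 8 of the 9 fits without 1 control array, and Dusp6 in 7. Fos, Egr1 and Klf6 passed the contrast but rose on to P2, with P2 means of 13.55, 13.01 and 10.21 over E18.5 means of 13.28, 12.47 and 9.89. Of 18 glucocorticoid response genes, 2 peaked (Per1 and Nr3c2, the mineralocorticoid receptor) and 0 dipped, with contrasts from -1.63 to 1.45, 10 of them below 0, and a median of -0.05. Of 19 circadian clock genes, 2 peaked (Per1 and Cry2) and 0 dipped, with a median of -0.02. In Htr3a-KO these lists held 3 and 2 dips and no peak. Per1, Nr3c2 and Cry2 had contrasts of 0.69, 1.45 and 0.56, none passed against P2, and their calls were kept in 8, 4 and 5 of the 9 fits. Litters were sampled at stated ages, and time of day was not analysed here.

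Receptor and channel genes held a few peaks. Of 9 GABA-A receptor subunits, Gabra2 and Gabra4 peaked and 0 dipped, against 0.945% peaks and 0.89% dips over all genes, which also apply to the lists that follow, and the median contrast was 0.13. Gabra2 read 8.02, 7.88 and 8.23 on the E14.5 arrays, then 9.60, 8.89 and 8.96 on the E18.5 arrays, then 8.54, 7.93 and 8.53 on the P2 arrays. The E18.5 arrays were the highest, with a contrast of 0.96 ± 0.20 (SE; limma, adjusted p = 0.0251), and 2 further probe sets of its 5 were called, 1 of them at 1.04. Gabra4 rose by 2.06 from E14.5 and differed by 0.06 from P2 (limma, adjusted p = 0.921). Both kept their call in 6 of the 9 fits without 1 control array. Of 20 glutamate receptor subunits, Gria2 peaked (0.66) and Grik3 dipped (-0.83), and of 33 voltage-gated channels Kcnc2, a Kv3 potassium channel, peaked (1.48). Each passed only against E14.5. Gria2, Grik3 and Kcnc2 differed from P2 by 0.17, -0.49 and 0.57 (limma, adjusted p = 0.49, 0.15 and 0.327). Their calls were kept in 8, 3 and 7 of the 9 fits, and Grik3 had a contrast of -0.11 in Htr3a-KO. Synaptic genes gave 0 calls of 32 by limma's contrast, with 10 at an unadjusted p under 0.05 and a median of 0.18.

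Among the 12 largest peaks with all E18.5 arrays apart were Slc26a7, an anion transporter, Ccbe1, Tafa2, Npy1r, a receptor of neuropeptide Y, Clstn2, a calsyntenin, and Arpp21, a phosphoprotein regulated by cAMP. Slc26a7 had the largest contrast of all peaks, 2.06 ± 0.39 (SE), from means of 5.79, 8.79 and 7.66, and passed only against E14.5. Ccbe1 had a contrast of 1.91, Tafa2 1.74, Npy1r 1.29, Clstn2 1.31 and Arpp21 1.19, and these also passed only against E14.5. Slc26a7, Ccbe1 and Npy1r kept their call in 7 of the 9 fits without 1 control array, Tafa2 in 8, Clstn2 in 4 and Arpp21 in 5. Ndrg1 and Pdk1, from the hypoxia and glycolysis list of 32, passed both steps with contrasts of 1.19 and 0.69 (kept in 2 and 6 of the 9 fits), and Ero1a of the same list passed only against P2. The 12 largest dips with all E18.5 arrays apart also held Mdfic and Lonrf3, which passed both steps with contrasts of -1.46 and -1.40 (kept in 8 and 6 of the 9 fits). Ugt8a, which makes the galactolipids of myelin, Myorg, a glycosidase, and Megf10, an engulfment receptor of glia, passed only against P2, with contrasts of -1.45, -1.40 and -1.25. Their calls were kept in 8, 8 and 2 of the 9 fits. Myorg had control means of 4.10, 3.77 and 6.26, so its E14.5 and E18.5 means lay below the 30% level.

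Further lists held 1 or 2 calls each. Of 24 Notch pathway genes, 23 were measured and Notch3 alone dipped, with a contrast of -1.59 ± 0.32 (SE) and means of 7.64, 6.95 and 9.44, past P2 only. Psph, an enzyme of serine synthesis, was the dip among 26 genes of the integrated stress and unfolded protein response, at -1.16, past P2 only. The cholesterol synthesis enzymes Hsd17b7 and Cyp51 were 2 peaks of 19 (0.56 and 0.57, both past E14.5 only). Casp2 and Bcl2l2, a protease and a survival protein of apoptosis, were 2 peaks of 21 (0.46 and 0.51). Casp2 passed only against P2, and Bcl2l2 only against E14.5. Cyp51 kept its call in 1 of the 9 fits, Bcl2l2 in 3, Notch3 in 6 and Psph, Hsd17b7 and Casp2 in 7.

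Of 21 CGE interneuron genes, Htr3a peaked, Crh and Lamp5 dipped and 18 were not called, against 0.945% peaks and 0.89% dips over all genes. Their median contrast was 0.08, and 10 had an unadjusted p under 0.05. Lamp5, a marker of neurogliaform cells, read 5.69, 6.07 and 6.10, then 5.29, 5.41 and 5.38, then 6.13, 6.13 and 6.77, so its E18.5 arrays were the lowest (contrast -0.79 ± 0.17 SE; limma, adjusted p = 0.0275). GABAergic identity genes held 0 calls of 10 by limma's contrast, with 2 at an unadjusted p under 0.05. Nr2f1 had stage means of 11.66 to 12.55 and Sp8 means of 8.50 to 8.68 in controls, while Crh had an E18.5 mean of 4.60. Of the 21 CGE genes, 1 had a control mean below 5.255 at every stage, not counting genes such as Crh that were this low at some stages only. Of 15 measured interneuron genes of the medial ganglionic eminence, 0 lay below it at every stage. Whether the sorted cells were all of CGE origin was not tested. Pcdh10 and Cntnap2, adhesion proteins, and Nrg1, the ligand of ErbB receptors, dipped with contrasts of -0.94, -1.20 and -0.58. Each was the only call of its list, of 29, 25 and 22 genes measured. Pcdh10 passed only against P2, and Cntnap2 and Nrg1 only against E14.5. Their calls were kept in 8, 8 and 2 of the 9 fits without 1 control array. In Htr3a-KO their contrasts were -0.17, -0.92 and 0.02.

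Markers of other cell types differed between the stages. Of 14 striatal projection neuron markers, 4 dipped (Ebf1, Foxp2, Zfp503 and Zfhx3), against 0.89% of all genes, with a median contrast of -1.08 over the list. In Htr3a-KO the list held 0 dips by limma's contrast and a median of -0.32. Ebf1, a factor of striatal neurons, read 10.05, 10.59 and 7.55 at E14.5, 4.26 to 4.81 at E18.5 and 4.39 to 4.80 at P2. The fall was therefore from E14.5 alone, largest on arrays 1 and 2, and each of these 4 calls was lost in at least 7 of the 9 fits without 1 control array. The summed striatal markers ran from 8549 to 33726 at E14.5, 6330 to 7143 at E18.5 and 8212 to 8484 at P2 in controls, with Drd2 and Ebf1 below the 30% level at E18.5. Of 15 astrocyte markers, Gja1 dipped and the median was -1.07, with summed levels of 2647 to 6803, 2560 to 5415 and 24100 to 40559, and Aqp4 and Gjb6 below the 30% level at E14.5 and E18.5. Gja1, connexin 43, read 7.14, 8.14 and 8.85 at E18.5 and overlapped with E14.5, at 8.06 to 9.95. Of 19 neural progenitor markers, Sox2 dipped (-0.77), with sums of 17460 to 26964, 16206 to 27345 and 39726 to 52941. This list shares Slc1a3, Aldoc and Sox9 with the astrocyte list, so the 2 sums are not independent. Sox2 kept its call in 3 of the 9 fits and had a contrast of -0.20 in Htr3a-KO. Microglia and macrophage markers held 0 calls of 19 by limma's contrast, with 3 at an unadjusted p under 0.05, a median of -0.91 and sums of 1390 to 3531, 1488 to 3503 and 2811 to 21786, with Aif1, Itgam and P2ry12 below the 30% level at E14.5 and E18.5. Excitatory neuron markers gave 1 peak of 19, Cux1 (0.57), and their sum was lower at each later stage, from 29125 to 37464 at E14.5 to 17593 to 21283 at E18.5 and 9465 to 12490 at P2. Oligodendrocyte lineage markers held 0 peaks and 0 dips of 14 by limma's contrast, with 7 at an unadjusted p under 0.05, and sums of 1711 to 2007, 6263 to 12721 and 22656 to 29123, with Enpp6 and Mog below the 30% level at E14.5 and E18.5. Olig1 passed the contrast at 2.00 with an E18.5 mean between the other stages. Endothelial and mural markers held none of 20, with 0 at an unadjusted p under 0.05 and sums of 1813 to 2615, 2657 to 4304 and 7034 to 10986. Below the 30% level lay 6 of these 20 markers at E14.5, 5 at E18.5 and Pecam1 alone at P2. Meningeal and fibroblast markers held 1 dip of 13, Crabp2 (-0.82). In bulk arrays, fewer cells of a type and less RNA per cell cannot be told apart, and the part of these cell types in the peaks and dips was not tested.

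**Figure D4:**
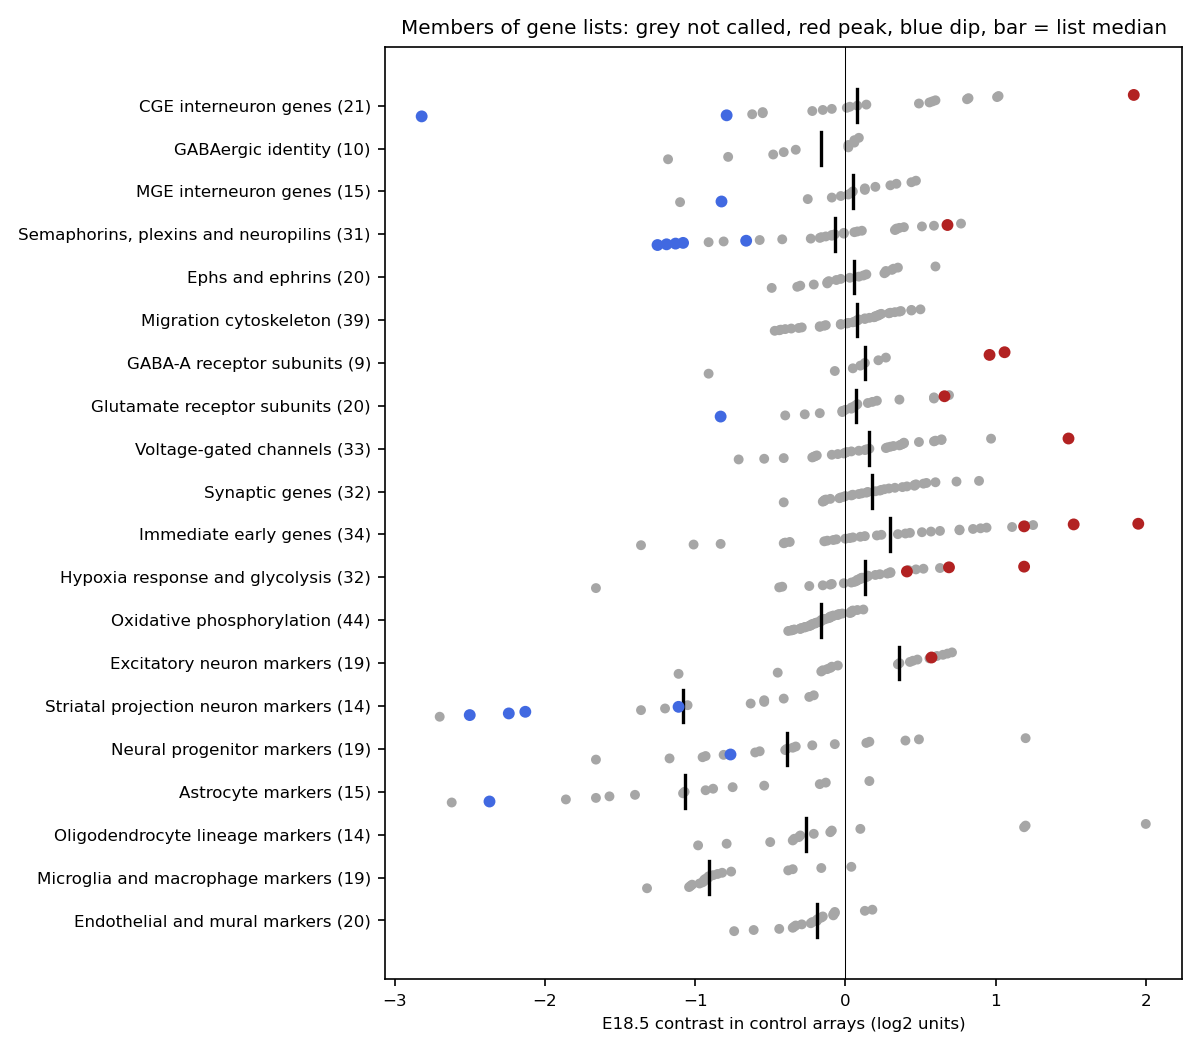
Each point is the E18.5 contrast of 1 measured list member in the control arrays (log2 units), with the number of members in brackets. Red points are peaks, blue points dips and grey points were not called, and the bar is the list median. There are 5 blue points in the semaphorin row and 4 in the striatal row, whose median is -1.08.

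The same contrast was computed in the 9 Htr3a-KO arrays, which did not enter the contrast that chose the members but shared in the estimate of spread and in the choice of each gene's probe set. Peaks were called for 2.15% of genes there (392) and dips for 3.89% (707). Of the 172 control peaks, 68 were called as peaks in Htr3a-KO (39.5%, and 17.3% of the Htr3a-KO peaks), and of the 162 dips, 80 were called as dips (49.4%, and 11.3% of the Htr3a-KO dips). No control peak was called as a Htr3a-KO dip or the reverse, and the contrast had the control's sign for 163 peaks and 158 dips. With the 9 Htr3a-KO arrays fitted alone, 54 of the peaks (31.4%) and 73 of the dips (45.1%) were called, against 1.46% and 2.36% of all genes. With each genotype fitted alone, 57 peaks and 41 dips were called in controls, and 19 and 18 of these were called in Htr3a-KO. Summed choroid plexus and ependymal markers read 11194 and 18042 on E14.5 Htr3a-KO arrays 1 and 2, against 345 to 1120 on the other Htr3a-KO arrays, and their part in these calls was not tested. The median Htr3a-KO contrast was 0.41 over the control peaks and -0.61 over the dips, against -0.07 over all genes. Without E18.5 Htr3a-KO array 1 the Htr3a-KO counts were 23 peaks and 47 dips. Both genotypes share the ages and the sort, and whatever else differed with the age of collection cannot be told apart from age.

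Of the 28 genes that kept their control call without each control array, 5 of the 10 peaks and 14 of the 18 dips were called in Htr3a-KO, and 8 and 18 had the same sign. Crh read 4.50, 5.91 and 5.46 at E18.5 in Htr3a-KO, against 6.11 to 6.62 at E14.5 and 8.50 to 8.93 at P2, again the lowest stage (contrast -2.28; limma, adjusted p = 0.00284). Sema6d read 10.20, 10.04 and 10.31 at E18.5, under all 6 other Htr3a-KO arrays (contrast -1.37; limma, adjusted p = 0.00161). Glt28d2, Tmem176b, Zfp521 and Pid1 had Htr3a-KO contrasts of 1.71, -1.35, -1.24 and -0.89, all called. Sema5b (-0.95) and Gabra2 (0.91) were called as well.

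**Figure D5:**
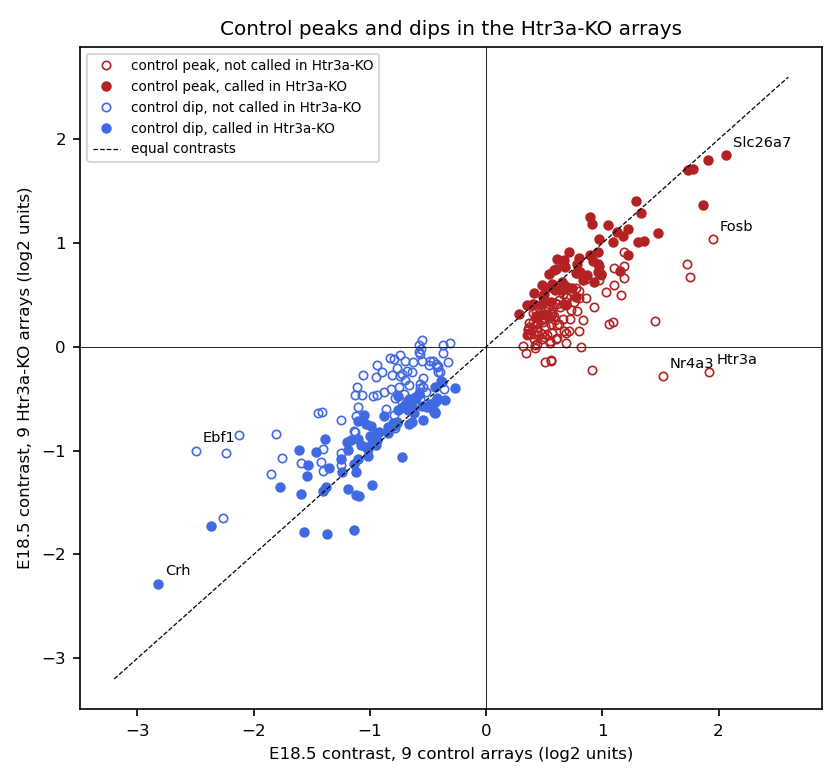
Each point is a control peak (red) or dip (blue). The horizontal axis is the E18.5 contrast of the 9 control arrays and the vertical axis that of the 9 Htr3a-KO arrays, in log2 units. Filled points were called in Htr3a-KO (68 peaks and 80 dips), and the dashed line marks equal contrasts. Htr3a and Nr4a3 are among the peaks that lie below 0 on the vertical axis.

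The difference between the genotypes in the E18.5 contrast was tested directly. It passed for 0 probe sets by limma (smallest adjusted p = 0.0972, for Htr3a), with 3571 at an unadjusted p under 0.05 (10.2% of those tested), and for 1 with array weights or a trended variance. The smallest p among genes lower in Htr3a-KO belonged to Htr3a (difference -2.16, unadjusted p by limma 5.57e-06), the deleted gene, followed by Nr4a3 and Grem1. Nr4a3 read 10.51, 10.88 and 10.15 at E18.5 in Htr3a-KO, below each E18.5 control array and overlapping with its own E14.5 arrays (10.99, 10.96 and 10.26), with a difference of -1.80 (unadjusted p by limma 6.79e-05). Grem1 read 6.30, 6.03 and 6.31 there, also below each E18.5 control array, with a difference of -0.83 (unadjusted p by limma 1.72e-04). Usp2 and Tmem89, which were not called in controls, came next with differences of -1.07 and -0.45 (limma, adjusted p = 0.385 for both). The smallest p among genes higher in Htr3a-KO belonged to Zfp182 (difference 0.92), Tex9 (0.62), Rlf (0.86), Slc24a2 (1.11) and Adhfe1 (0.99), each with an adjusted p of 0.415 by limma. Of these, Tex9 was a control dip, with a contrast of -0.55 in controls and 0.07 in Htr3a-KO. Neither Nr4a3 nor Grem1 passed after adjustment over all probe sets.

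At the threshold, the dip Heatr5a (contrast -0.55) and the peak Frat2 (0.78) passed with an adjusted p of 0.0499 by limma. Sik2 (0.74) and Pole4 (0.47) missed it with 0.0502 and 0.0504. Called genes had further probe sets, 216 for peaks and 212 for dips, of which 193 and 185 had the same sign, 40 and 29 the same call and 0 the opposite call. The E18.5 mean was below the 30% level for 18 dips, where the size of a fall is bounded by the array's floor.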

How the data were processed

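GFP-sorted interneurons were profiled on 18 arrays. Per the series' design text, the authors read the signals in Partek Genomic Suite 6.6 and normalised them by robust multi-array averaging, so the deposited values are log2 intensities, which entered the fit unchanged. Of 45101 probe sets, 64 were controls, 34945 had 1 gene in the platform annotation, 932 had several and 9160 had none. A gene is its probe set with the highest mean over 18 arrays (9010 of 18193 genes had more than 1). limma 3.58.1 in R 4.3.3 fitted 1 mean for each of the 6 groups (12 residual degrees of freedom), without a filter on dim probe sets, and adjusted p by Benjamini-Hochberg over the 34945 probe sets. The fit was tested on simulated data. Number of arrays limits precision. Replicate numbers did not pair samples: over all pairs of the 6 groups, correlations of same-numbered arrays ran from -0.459 to 0.356. The members and the 45 gene lists (938 of 1026 genes measured) were chosen with earlier results of these data known. Genes were named by rule, starting with Htr3a and the 12 largest peaks and dips with all E18.5 arrays apart. Numbered gene models and genes below the 30% level at each stage were left out of these. The rule also took up to 3 calls per list, those with the smallest p. It further took the 5 smallest p of the genotype difference each way and the 2 genes on each side of the threshold. The 28 genes kept without each control array, Plk2, Zscan18 and Otud7a were added after values were seen. So were Sema5a, Plxnc1, Sema4f and Zfp503, calls beyond the 3 of their lists, and uncalled list members in the text other than Olig1. Promoters are RefSeq's, GRCm38.p6.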

Additional observations from a re-analysis of the deposited data

How the results depend on the processing

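Of the 82 peaks and dips named, 0 reversed direction in the alternatives run for the control contrast. In every such alternative with a value 24 kept their call, among them Car2, Ccno, Crh, Glt28d2, Grem1, Htr3a, Sema6d and Zfp521, and the call was lost in 294 of 1715 gene and setting pairs. Counts moved with how the spread was estimated. Array weights gave 1383 genes past the contrast, 606 peaks, 497 dips, 157 peaks and 90 dips past each step, 2 dips by the larger p, 1089 peaks and 2215 dips in Htr3a-KO, 291 and 260 shared, and 1 genotype difference. Fitting only the 9 arrays of a genotype gave 124, 57 peaks, 41 dips, 27 and 13 past each step, 429 Htr3a-KO dips, and 19 and 18 shared, with fewer arrays behind the spread. An adjusted p under 0.10 gave 827, 352, 290, 115 and 68 past each step, 794 and 1502 in Htr3a-KO, 155 and 156 shared, and 2 genotype differences. Requiring 1.5-fold left 102 control peaks, and 207 peaks and 228 dips in Htr3a-KO. Averaging the probe sets of each gene, with the lowest 30% left out, gave 259 peaks. Quantile normalisation gave 237 Htr3a-KO peaks, and a trended variance 1 genotype difference. The replicate block, with numbers that did not pair the samples, gave 346 genes, 136 peaks and 133 dips. With single arrays left out, the contrast called 57 to 644 genes, 14 to 305 peaks and 23 to 213 dips. Past each step there were 8 to 74 peaks and 8 to 45 dips, and by the larger p 0 to 1 of each. In Htr3a-KO there were 23 to 506 peaks and 47 to 737 dips, 7 to 96 peaks and 16 to 100 dips were shared, and 0 to 2 genotype differences passed. The lowest control counts were without E18.5 control array 1 and the highest without P2 control array 1; the cause was not tested. Signal near the array's floor limits the size of the dips, 18 of which had an E18.5 mean below the 30% level.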
